A study of Homo sapiens with 9 samples.

Results

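Genes of the smooth-muscle contractile apparatus were examined in LX-2 cells, an immortalized human hepatic stellate cell line. The set held 10 genes of the 20777 listed in the count table: ACTA2, ACTG2, TAGLN, CNN1, CALD1, TPM1, TPM2, MYL9, MYLK and MYLK3. They were chosen by gene symbol, with measured values of ACTA2 and MYLK3 in TGF-β and control libraries already known, so differences of these 10 genes from the control group, threshold calls included, describe the values and support nothing. All 10 were listed, and all 10 were among the 13384 genes that passed the filter on low counts.

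RNA was sequenced from 3 groups of 3 libraries each, all of the same unmodified line grown in serum-containing medium. The control group carried no treatment label, the TGF-β group was treated with TGF-β, and the TGF-β + uridine group received both TGF-β and uridine. Both treatments are labelled day 1. In the study's methods TGF-β came first, and the medium was then exchanged for one with uridine. No group received uridine alone, so uridine was compared only on a TGF-β background. Nothing in the labels says whether the 3 libraries of a group came from separate cultures. The p-values below therefore set differences against the spread between libraries, which may not be that between cultures. Unless stated otherwise, the edgeR fits estimated that spread over all 9 libraries, those outside a comparison included.

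Each library held between 40539751 and 41467124 counted reads. Levels are given as CPM, read counts scaled to a common library size with TMM normalization factors, which ran from 0.820 to 1.16 and were lowest in control replicate 1. Control replicate 1 also stood apart in its GC slope, the rise of log2 CPM per unit of GC fraction across genes, at 14.1 against 4.30 to 10.7 in the other 8 libraries. Of 13 stellate and fibroblast markers, VIM had the highest level (438 to 852 FPKM, a read count scaled to gene length and library size), and COL1A1 averaged 7.69 FPKM in controls and 10.6 FPKM with TGF-β. COL1A2 and HAND2 did not exceed 3 reads in any library, and PDGFRA and LRAT were not listed. The 11 listed markers summed to 556 to 694 FPKM in the controls, 1018 to 1036 FPKM with TGF-β and 921 to 951 FPKM with TGF-β + uridine. Most of each sum was VIM, which averaged 501, 841 and 751 FPKM in the same order. The 5 epithelial markers, of which 2 exceeded 1 FPKM in all libraries, summed to 603 to 812, 1152 to 1201 and 857 to 999 FPKM in the same groups, nearly all of it the keratin gene KRT7, while EPCAM had at most 5 reads. Their part in the differences below was not tested. The leading markers of other types were CD68 (macrophages, 16.8 to 22.7 FPKM), PECAM1 (endothelium, at most 0.374 FPKM), MYL2 (heart, at most 0.372 FPKM) and SERPINA1 (hepatocytes, at most 0.0799 FPKM), and ALB and PTPRC were not listed. Of 6 mature smooth-muscle markers, desmin (DES) was at 6.40 to 9.29 FPKM and SMTN at 3.13 to 5.05 FPKM. MYH11, LMOD1, KCNMB1 and MYOCD had at most 5, 2, 4 and 28 reads. The contractile genes below were thus measured in cells with next to no smooth-muscle myosin heavy chain (MYH11) transcript.

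In stellate cells that turn into myofibroblasts, α-smooth muscle actin enters stress fibres and serves as the usual marker of activation. Contraction is switched on when calcium-calmodulin activates a myosin light chain kinase, which phosphorylates the regulatory light chain on myosin. Transgelin, calponin, caldesmon and tropomyosin sit on the actin filament, and many of these genes are transcribed through serum response factor (SRF), which binds a DNA element called the CArG box.

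The stretches upstream of the transcription starts of ACTA2, ACTG2, MYLK and CNN1 are shown because they hold, or lack, this element. They come from RefSeq (GRCh38.p14) and are written 5′ to 3′ on the gene's own strand, ending at the base before the start. Capitals mark CArG boxes in ACTG2 and MYLK and, in ACTA2, CArG-like runs in which 1 of the 6 central A or T positions is a G or C.
ACTA2, chr10:88952774-88952914, minus strand: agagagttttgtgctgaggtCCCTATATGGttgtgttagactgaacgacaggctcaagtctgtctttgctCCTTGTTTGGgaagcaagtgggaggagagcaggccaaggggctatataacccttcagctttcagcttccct
ACTG2, chr2:73892878-73893007, plus strand: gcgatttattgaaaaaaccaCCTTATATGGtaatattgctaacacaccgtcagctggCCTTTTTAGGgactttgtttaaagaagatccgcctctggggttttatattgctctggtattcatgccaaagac
MYLK, chr3:123620549-123620668, minus strand: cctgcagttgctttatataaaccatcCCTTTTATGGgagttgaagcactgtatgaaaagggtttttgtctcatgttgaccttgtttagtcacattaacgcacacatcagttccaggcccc
CNN1, chr19:11538731-11538850, plus strand: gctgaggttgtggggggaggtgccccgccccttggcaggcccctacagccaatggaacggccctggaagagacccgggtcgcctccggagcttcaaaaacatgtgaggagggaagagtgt

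The ACTG2 stretch held CArG boxes beginning 110 and 73 bases before the start, and the ACTA2 stretch held CArG-like runs beginning 121 and 71 bases before it. The MYLK box began 94 bases before a start that lies inside the gene, near its 3′ end. No match was found in the CNN1 stretch or in the window at the 5′ end of ACTA2, the second window of that gene, which is not shown. RefSeq promoter windows, all of equal length and lying mostly upstream of a start, existed for 8 of the 10 genes and numbered 14, with TAGLN and MYL9 unmatched. A CArG box was present in the windows of 2 genes, the MYLK box being the one inside the gene. A CArG box or a CArG-like run was present for 4, CALD1 being the fourth. The CALD1 run lay in the window of a start at chr7:134711499, before the gene start used here (134744252), and its other windows held none. Among all 35116 RefSeq windows of this length, 1.29% held a CArG box and 6.94% a CArG-like run, the element reading alike on both strands. Counted per gene over 27305 genes, as for the members, the shares were 1.60% and 8.46%. The letters CATTCC, bound by TEAD factors and searched on both strands, occurred in windows of ACTA2, CALD1, MYLK and MYLK3, in 14% of all windows and in 16.7% of genes.

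Measured per kilobase, the 10 genes spanned a wide range. In the control group the β-tropomyosin gene TPM2 led with 417 ± 49.5 FPKM (SD, n = 3), followed by the regulatory light chain gene MYL9 with 122 FPKM. TPM1 (15.4 ± 2.87 FPKM) and TAGLN (13.03 ± 1.82 FPKM) came next and overlapped each other. ACTG2 (6.69 ± 1.97 FPKM), ACTA2 (5.32 ± 0.987 FPKM) and CALD1 (4.57 ± 2.98 FPKM) also overlapped, and MYLK3 (2.16 ± 1.04 FPKM) overlapped the low end of CALD1. MYLK and CNN1 were lowest, at 0.142 and 0.0303 FPKM. The deposited values used 1 length per gene, for example 1808 bases for ACTA2 and 8240 bases for MYLK3, so transcript isoforms were not separated.

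**Figure D1:**
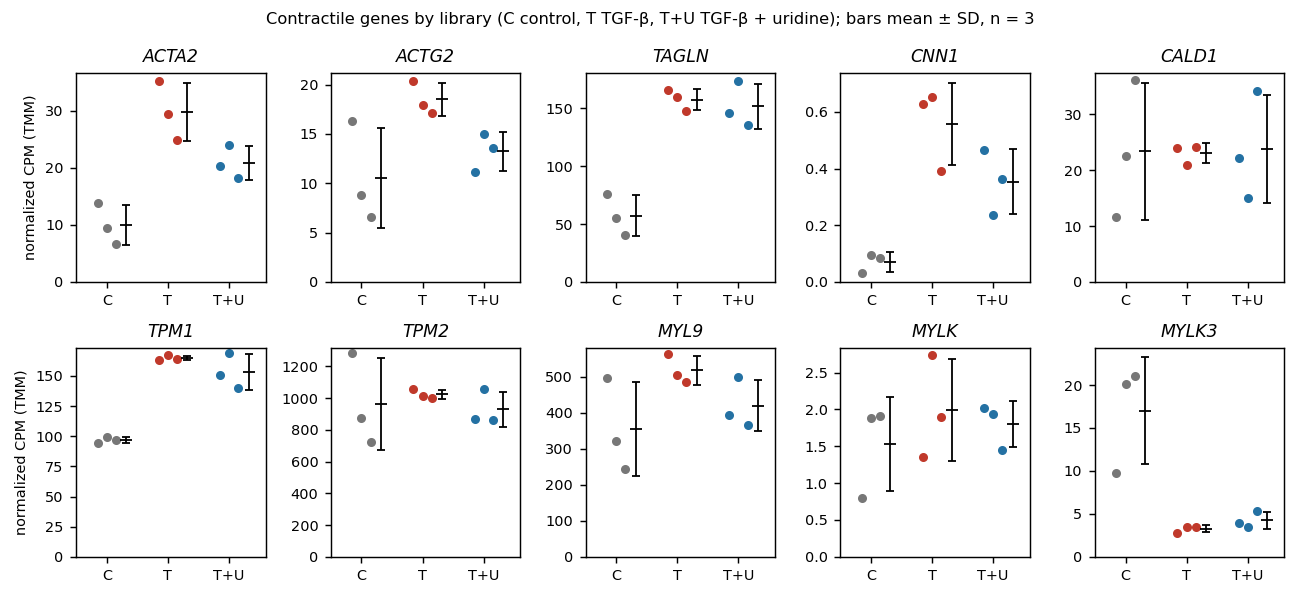
Normalized CPM (vertical axes, each from 0) of the 10 contractile genes in control (C), TGF-β (T) and TGF-β + uridine (T+U) libraries; points are libraries and bars the mean ± SD of 3. ACTA2, ACTG2, TAGLN, CNN1 and TPM1 sat higher in all 3 TGF-β libraries than in any control, MYLK3 sat lower, and CALD1, TPM2, MYL9 and MYLK overlapped.

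The first comparison asked how the contractile genes differed after TGF-β treatment. Of the 10 genes, 4 passed the edgeR threshold (adjusted p under 0.05) as higher with TGF-β (ACTA2, TAGLN, CNN1 and TPM1), against 2.42% of all tested genes, and 1 passed as lower (MYLK3), against 0.964%. In either direction that is 5 of 10, against 3.38% of tested genes. The groups did not overlap for 5 genes that were higher, against 9.72% of tested genes, and for 1 that was lower, against 7.96%. The median log2 difference was 0.66 over the 10 genes and -0.05 over all tested genes. Because this contrast was known when the genes were chosen, nothing is read from these counts. The calls of ACTA2 and CNN1 were lost when control replicate 2, TGF-β replicate 1 or TGF-β replicate 2 was left out. In each of these fits 3 of the 10 genes passed, against 239 of 13645, 236 of 13680 and 218 of 13678 tested genes. Without control replicate 1, 7 of the 10 passed, against 1085 of 13684 tested genes. In bulk RNA, a change in the share of cells carrying a transcript and a change in the amount per cell cannot be told apart.

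Actin was followed first. ACTA2 (chr10:88935074-88991339, minus strand, GRCh38), which encodes α-smooth muscle actin, was at 13.8, 9.45 and 6.69 CPM in the controls, 35.2, 29.4 and 25.0 CPM with TGF-β, and 20.4, 24.0 and 18.1 CPM with TGF-β + uridine. The 3 groups formed separate ranges, with the uridine libraries between the other two. The log2 difference of ACTA2 from control was 1.58 (SE 0.26) with TGF-β and 1.07 (SE 0.26) with TGF-β + uridine. ACTA2 overlaps FAS, STAMBPL1 and ACTA2-AS1 on the opposite strand, and the strand setting of the counting was not given in the sources used here, so reads from these genes might not be told apart. FAS had 14 to 125 reads and STAMBPL1 81 to 322 reads a library, and the highest count of each was in control replicate 3. The nearest listed genes that do not overlap it are ANKRD22, with at most 1 read, and LIPA, with 238 to 706 reads. Within the controls, ACTA2, ACTG2 and TAGLN were all highest in replicate 1 and lowest in replicate 3, the order of their GC slopes; its part in these differences was not tested.

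ACTG2 (chr2:73892314-73919865, plus strand), the γ-smooth muscle actin of visceral muscle, was at 16.3, 8.79 and 6.63 CPM in the controls, 20.4, 17.9 and 17.2 CPM with TGF-β, and 11.1, 15.03 and 13.5 CPM with TGF-β + uridine. All 3 TGF-β libraries were above all 3 controls, but the uridine libraries fell within the range of the controls. Its log2 difference from control was 0.81 (SE 0.30) with TGF-β, which did not pass the threshold. Per kilobase, ACTA2 stood at 0.702 to 0.893 times ACTG2 in the controls, at 1.21 to 1.43 times with TGF-β and at 1.11 to 1.52 times with TGF-β + uridine. Per kilobase, the order of both smooth-muscle actins was thus opposite in controls and in treated libraries. In reads, ACTA2 was above ACTG2 in control replicate 2 (397 against 369) and control replicate 3 (319 against 316), and below it in control replicate 1 (465 against 550).

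Both were a very small part of the actin message. ACTA2 made up 0.0724% of the summed FPKM of 5 listed actin genes in controls, 0.172% with TGF-β and 0.133% with TGF-β + uridine. ACTB and ACTG1, the cytoplasmic actins, held nearly all of the rest. ACTC1, the α-actin of heart muscle and no member of the set, rose with TGF-β by 2.13 on the log2 scale (SE 0.20, edgeR adjusted p = 0.000465), from 305, 240 and 296 reads to 1293, 1209 and 1234 reads. Its FPKM of 21.1 to 22.8 with TGF-β exceeded the 13.9 to 18.9 FPKM of ACTA2. ACTA2, ACTG2 and ACTC1 have closely similar coding sequences, and how reads shared between them were counted was not given in the sources used here.

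The filament partners differed among themselves. TAGLN (chr11:117199321-117204782, plus strand), encoding the actin-binding protein transgelin, was at 76.1, 55.1 and 40.8 CPM in the controls, 166, 160 and 148 CPM with TGF-β, and 146, 174 and 136 CPM with TGF-β + uridine. Both treated groups lay well above the controls and overlapped each other. The log2 difference of TAGLN from control was 1.46 (SE 0.21) with TGF-β and 1.41 (SE 0.21) with TGF-β + uridine. TAGLN overlaps PCSK7 on the opposite strand, which had 1457 to 1759 reads a library.

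CNN1 (chr19:11538717-11550323, plus strand), encoding calponin 1, an actin-binding inhibitor of actomyosin, had 1, 4 and 4 reads in the controls, 25, 27 and 16 reads with TGF-β, and 20, 9 and 16 reads with TGF-β + uridine. Its log2 difference from control was 2.91 (SE 0.51) with TGF-β. This is the largest fold of the set and it rests on the fewest reads, the controls lying at or near 3 reads, the limit that a count of 0 allows. Its paralogs CNN2 and TAGLN2 carried most of the calponin and transgelin message, TAGLN2 alone holding 84.2% to 87.0% of the family's FPKM in group means, against 1.47% for TAGLN in controls and 3.31% with TGF-β.

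CALD1 (chr7:134744252-134970728, plus strand), encoding caldesmon, was at 11.6, 22.5 and 36.1 CPM in the controls, 24.0, 20.9 and 24.2 CPM with TGF-β, and 22.2, 15.1 and 34.2 CPM with TGF-β + uridine. The controls alone covered the whole range of the treated libraries. Its order roughly followed the GC slope of the libraries in reverse. The lowest value was in control replicate 1 (slope 14.1) and the highest in control replicate 3 (slope 4.30), followed by uridine replicate 3 (slope 5.70). GC makes up 41.6% of the longest annotated coding transcript of CALD1, the lowest of the 10 genes. Whether GC content set the level of CALD1 was not tested.

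**Figure D2:**
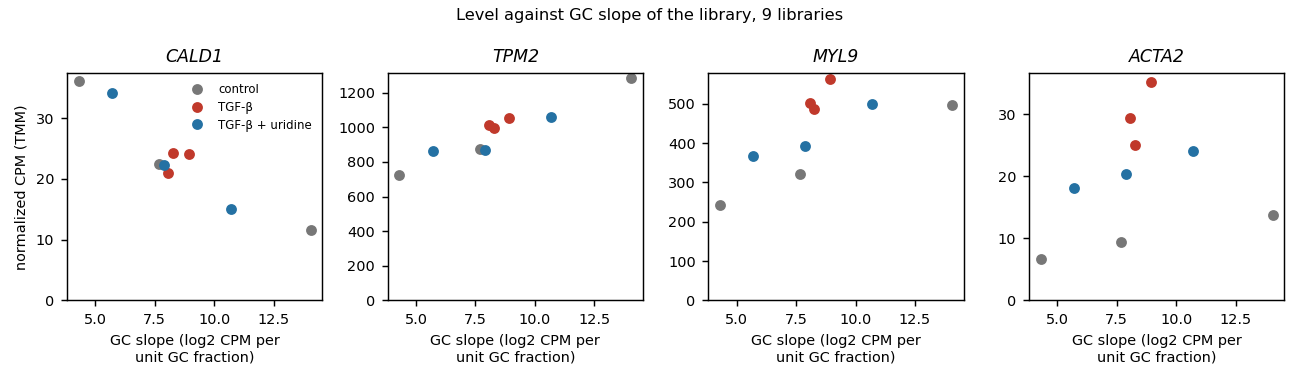
Normalized CPM of CALD1, TPM2, MYL9 and ACTA2 (vertical axes, from 0) against the GC slope of each of the 9 libraries (horizontal axes, log2 CPM per unit GC fraction), coloured by group. CALD1 is lowest and TPM2 highest in the control library with a slope of 14.1, whereas the 3 groups stay apart for ACTA2.

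Of the tropomyosins, TPM1 (chr15:63042632-63071915, plus strand) was at 94.1, 99.2 and 97.1 CPM in the controls, 164, 167 and 164 CPM with TGF-β, and 151, 169 and 140 CPM with TGF-β + uridine. In CPM it was the most even of the 10 genes within the control and TGF-β groups, but in FPKM its highest control was 1.46 times its lowest, against 1.26 times for TPM2. Its log2 difference from control was 0.77 (SE 0.09) with TGF-β. TPM2 (chr9:35681992-35690121, minus strand) was at 1284, 873 and 724 CPM in the controls, 1056, 1015 and 998 CPM with TGF-β, and 868, 1058 and 862 CPM with TGF-β + uridine. Control replicate 1 was above and the other 2 controls were below all TGF-β libraries, and the log2 difference of 0.09 (SE 0.20) was within that spread. TPM2 is GC-rich (60.4%), and its control values ran in the order of their GC slopes; the part of GC content in this was not tested. TPM1-AS, antisense to TPM1, had 4 to 22 reads, and DLGAP4-AS1, antisense to MYL9, had at most 4. TPM2 supplied 73.4% of the summed tropomyosin FPKM in controls and 67.9% with TGF-β, against 2.70% and 3.86% for TPM1.

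MYL9 (chr20:36541484-36551447, plus strand), encoding the regulatory light chain of smooth-muscle and non-muscle myosin, was at 497, 323 and 244 CPM in the controls, 562, 503 and 486 CPM with TGF-β, and 393, 499 and 366 CPM with TGF-β + uridine. The highest control, replicate 1, lay within the range of the TGF-β libraries. Its log2 difference from control was 0.55 (SE 0.24) with TGF-β and 0.24 (SE 0.24) with TGF-β + uridine. MYL9 has a GC content of 60.5% and was also ordered by GC slope within the controls, which was not tested further.

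The kinase genes went different ways. MYLK (chr3:123610049-123884331, minus strand), encoding the kinase of smooth muscle, had 27, 79 and 91 reads in the controls, 54, 113 and 78 reads with TGF-β, and 87, 74 and 64 reads with TGF-β + uridine, with all groups overlapping. Its antisense partner MYLK-AS1 had more reads than MYLK itself in every library (132 to 239), so the level of MYLK is uncertain if the counting did not use strand. MYLK3 (chr16:46703369-46790407, minus strand), encoding the kinase of heart muscle, was at 9.81, 20.2 and 21.1 CPM in the controls, 2.82, 3.49 and 3.48 CPM with TGF-β, and 3.91, 3.502 and 5.33 CPM with TGF-β + uridine. Every treated library was below every control, although control replicate 1 had less than the other controls. The log2 difference of MYLK3 from control was -2.38 (SE 0.32) with TGF-β and -2.001 (SE 0.31) with TGF-β + uridine.

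MYLK2, which encodes the kinase of skeletal muscle and is no member of the set, rose while MYLK3 was lower. It had 9, 10 and 22 reads in the controls, 104, 62 and 63 with TGF-β, and 107, 96 and 113 with TGF-β + uridine, a log2 change of 2.52 with TGF-β (SE 0.36, edgeR adjusted p = 0.00512). Of the summed FPKM of the 4 kinase genes, MYLK3 held 85.1% in controls, 30.3% with TGF-β and 30.2% with TGF-β + uridine. The share of MYLK2 was 5.04%, 50.2% and 53.1% in the same groups. Per kilobase, MYLK2 stood at 0.0348 to 0.0801 times MYLK3 in the controls and at 1.27 to 2.73 times with TGF-β. In reads, MYLK3 stayed above MYLK2 in every TGF-β library (112, 144 and 143 reads). Which kinase transcript led with TGF-β thus depends on the 1 length used per gene, and both were under 1 FPKM there. ORC6 and C16orf87, the nearest listed genes, lie 4974 and 6199 bases from MYLK3, and ORC6 stayed between 11.9 and 16.6 CPM in all 9 libraries.

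**Figure D3:**
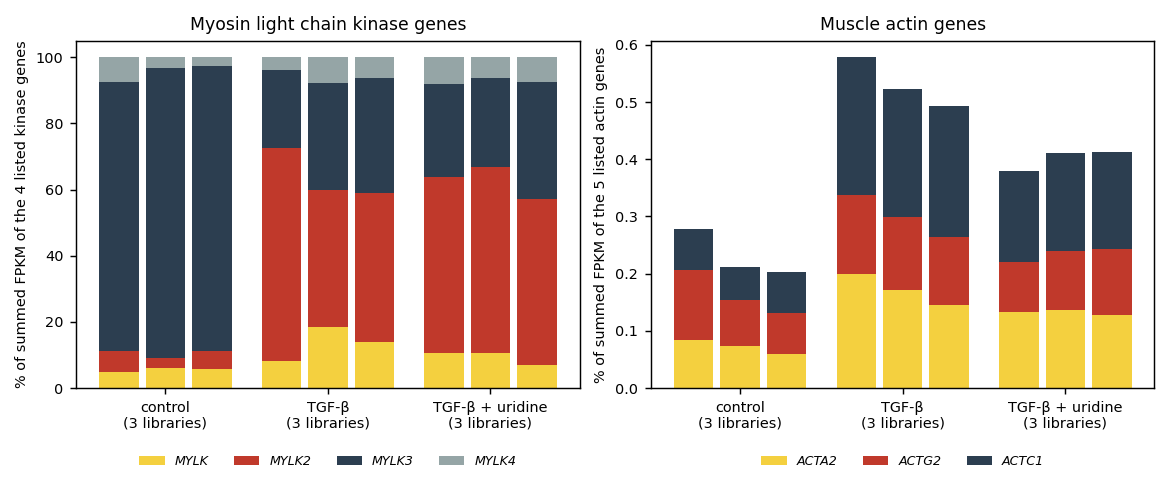
Stacked bars, 1 per library, of the percent of summed FPKM held by 4 myosin light chain kinase genes (left) and by the 3 muscle actins among 5 listed actin genes (right). MYLK3 holds 81.3% to 87.8% of kinase FPKM in controls and 23.5% to 34.7% with TGF-β, and the muscle actins stay under 1% of actin FPKM in every library.

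The difference of TGF-β + uridine from control shares its control libraries with the comparison above. In it, 4 of the 10 genes passed as higher, against 2.89% of tested genes, and 1 as lower, against 2.44%, or 5 of 10 against 5.33% in either direction. They were ACTA2, TAGLN, CNN1, TPM1 and MYLK3, and leaving out any library but control replicate 1 removed ACTA2 and CNN1. Without control replicate 1, 7 passed, and the counts over all genes in fits with a library left out are given with the processing settings below. For ACTG2 the log2 difference from control was 0.33 (SE 0.30), for MYL9 0.24 (SE 0.24), and the other 3 lay between -0.05 and 0.23.

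The comparison of TGF-β + uridine with TGF-β asked whether uridine altered the contractile genes in TGF-β-treated cells. This contrast was not used to choose them, but it shares the TGF-β libraries in which values of ACTA2 and MYLK3 were already known. The p-values of ACTA2 and MYLK3, here and in the fits below, are therefore not independent of the choice. None of the 10 genes passed the edgeR threshold, against 0.0448% of tested genes, 6 in all (271 without control replicate 1 and 0 in 7 of the 8 other fits that left out 1 library). At an unadjusted p under 0.05 the count was also 0 of 10, against 1177 of 13384 genes, and DESeq2 called 0 of the 10, against 1.78% of tested genes (238). The median log2 difference was -0.14 over the 10 genes and 0.02 over all tested genes, and 2 of the 10 values were above 0, against 7149 of 13384.

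ACTA2 had a log2 difference of -0.52 between TGF-β + uridine and TGF-β (SE 0.25, 95% interval -1.10 to 0.06, edgeR adjusted p = 0.631), which is 30.2% less. All 3 uridine libraries were below all 3 TGF-β libraries, the nearest being 24.0 and 25.0 CPM, and the two-sided exact permutation p was 0.1, the smallest that 3 against 3 can give. ACTG2 was likewise lower in all 3 uridine libraries, with a log2 difference of -0.48 (SE 0.30, 95% interval -1.16 to 0.19, edgeR adjusted p = 0.756). MYLK3 was higher in all 3, with a log2 difference of 0.38 (SE 0.31, 95% interval -0.31 to 1.07, edgeR adjusted p = 0.844). Groups that did not overlap were common, at 12.8% of tested genes for the lower direction (2 of the 10 members) and 12.8% for the higher (1 of the 10).

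For TAGLN the log2 difference was -0.05 (SE 0.20, 95% interval -0.51 to 0.41, edgeR adjusted p = 0.995), and for TPM1 -0.11 (SE 0.09, 95% interval -0.32 to 0.11, edgeR adjusted p = 0.870). The interval of TPM1 was the narrowest of the set. MYL9 (-0.30, SE 0.24), CNN1 (-0.65, SE 0.44), TPM2 (-0.14, SE 0.20), MYLK (-0.15, SE 0.39) and CALD1 (0.05, SE 0.40) all had overlapping groups, and no adjusted p of these genes was under 0.793.

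**Figure D4:**
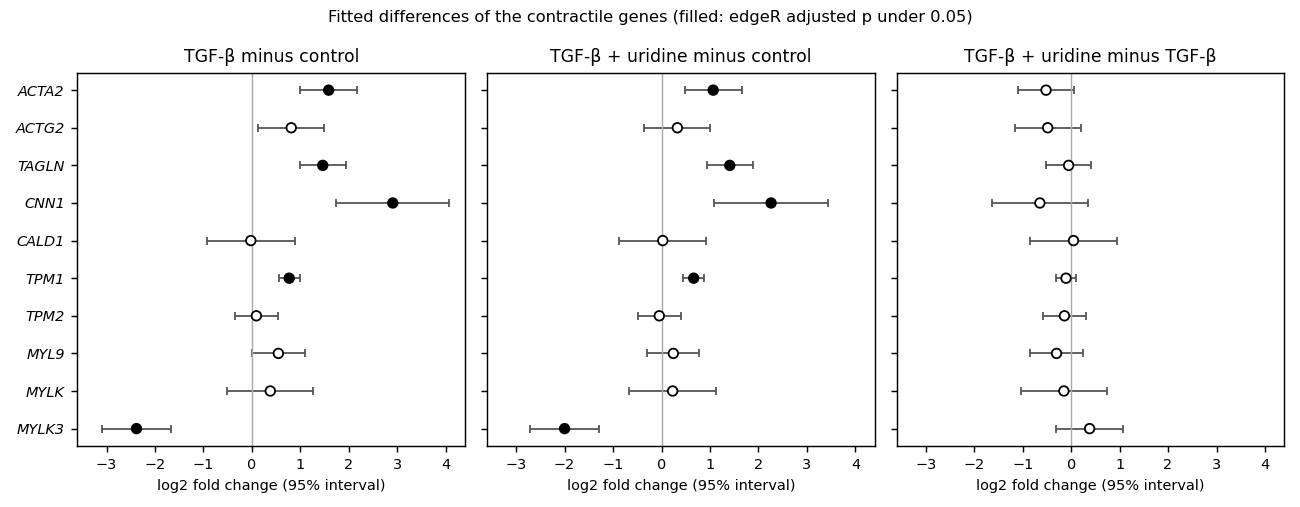
Fitted log2 fold change with its 95% interval (horizontal axes) for each contractile gene in 3 comparisons; filled points passed the edgeR threshold over all tested genes, which is a description in both comparisons with control. ACTA2, TAGLN, CNN1, TPM1 and MYLK3 are filled in both comparisons with the control group, and no point is filled between TGF-β + uridine and TGF-β.

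This result depended on how the spread among libraries was modelled. With the GC slope of each library as a covariate, ACTA2 (log2 difference -0.49, SE 0.10, edgeR adjusted p = 0.00481), ACTG2 (-0.44, SE 0.13, edgeR adjusted p = 0.0289) and MYL9 (-0.28, SE 0.05, edgeR adjusted p = 0.00113) passed the threshold as lower with uridine. These were 3 of the 10 genes, against 9.06% of tested genes called lower in that fit. The differences themselves moved little while their standard errors shrank, and the slope was estimated from the same counts. TAGLN (-0.03, SE 0.05, edgeR adjusted p = 0.724) and TPM1 (-0.11, SE 0.06, edgeR adjusted p = 0.241) did not pass in that fit either, and MYLK3 had an edgeR adjusted p of 0.133. With a replicate block added to the GC slope, ACTG2 no longer passed. All these fits estimated the spread of a gene over the 9 libraries, with the controls, which are outside this comparison, included. When only the TGF-β and TGF-β + uridine libraries were fitted, without the GC slope, the edgeR adjusted p was 0.104 for ACTA2 and 0.102 for ACTG2. In that fit 0 of the 10 genes passed, against 317 of 13011 tested genes.

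**Figure D5:**
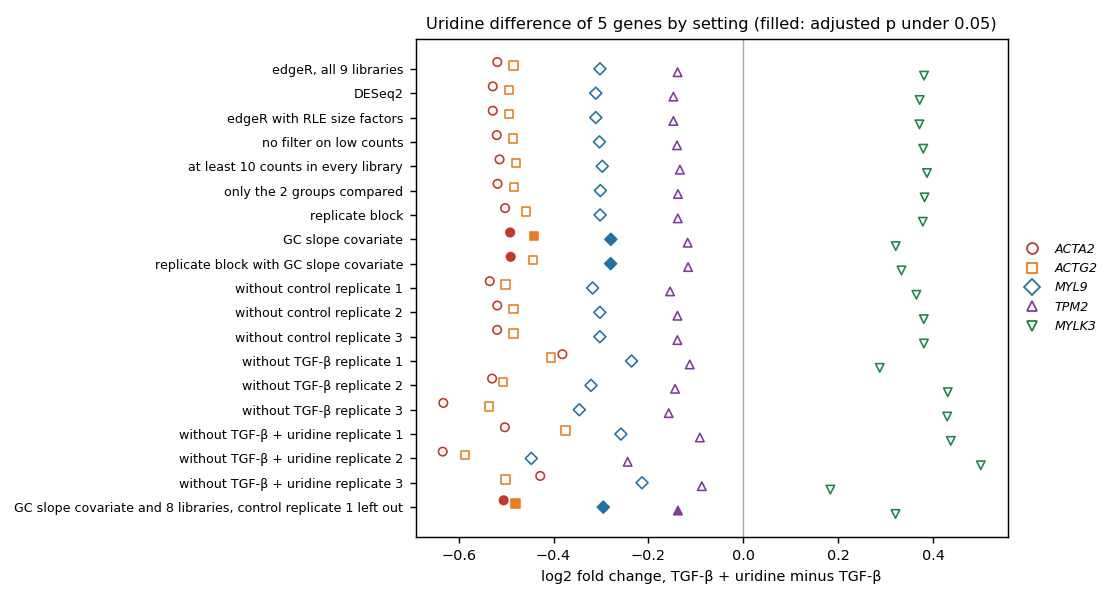
Log2 fold change between TGF-β + uridine and TGF-β (horizontal axis) of ACTA2, ACTG2, MYL9, TPM2 and MYLK3 under each processing setting (rows); filled symbols have an adjusted p under 0.05. Symbols for ACTA2 stay between -0.63 and -0.38 and are filled where the GC slope is a covariate. The genes drawn include every member that passed in any setting, and the members not drawn passed in none.

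Companion genes were taken from 4 lists. These were drawn up with earlier results of these data known, so their calls and p-values, here and above, describe the values only. Of 14 tested smooth-muscle companions, 2 rose with TGF-β and none fell: PDLIM7 (log2 change 1.07, edgeR adjusted p = 0.0259) and FHL2 (log2 change 0.97, edgeR adjusted p = 0.00113), both encoding LIM-domain proteins of the actin cytoskeleton. The list's median log2 difference was 0.39. Over all tested genes, 2.42% passed as higher and 0.964% as lower in this comparison, with a median of -0.05. Of 16 tested paralogs of the members, 3 rose and none fell, with a median of 0.25: MYLK2, ACTC1 and MYH9, the heavy chain of non-muscle myosin IIA (log2 change 0.49, edgeR adjusted p = 0.0395).

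Of 20 SRF cofactors and stress fibre anchors, 2 rose with TGF-β and none fell, with a median of 0.30. MYOCD, which encodes myocardin, the muscle-restricted coactivator of SRF, had 0 reads in every control library, 12, 23 and 28 reads with TGF-β, and 12, 18 and 14 reads with TGF-β + uridine. Set against a floor of 3 reads over the control group, it was at least 21.2-fold higher with TGF-β (edgeR adjusted p = 0.00614) and at least 14.4-fold higher with TGF-β + uridine. FBLIM1, encoding the filamin-binding protein migfilin, rose by 1.07 (edgeR adjusted p = 0.0177). SRF itself was at 76.1, 57.8 and 50.8 CPM in the controls and 84.7, 80.7 and 85.8 CPM with TGF-β, a difference of 0.44 that did not pass (edgeR adjusted p = 0.222).

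Of 20 striated muscle markers, 3 were tested, with a median log2 difference of -0.505. MYL7, the light chain of atrial muscle, rose (log2 change 1.702, edgeR adjusted p = 0.0473). TNNT1 (-0.505, edgeR adjusted p = 0.601) and TNNC1 (-0.879, edgeR adjusted p = 0.216) had values below 0 and did not pass. Leaving out single libraries ended the calls of PDLIM7, MYH9, FBLIM1 and MYL7, whose edgeR adjusted p reached 0.134, 0.188, 0.101 and 0.205. FHL2, MYLK2, ACTC1 and MYOCD passed in every alternative in which they were tested, but these refits use the same libraries and add no independent support. The heart markers MYH7 and ACTN2 did not exceed 3 reads in any library, and MYH6 and TTN were not listed. TNNT2, TNNI3 and MYL2 reached at most 10, 11 and 12 reads.

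Between TGF-β + uridine and TGF-β, no gene of these 4 lists passed in edgeR or in DESeq2, against 0.0448% and 1.78% of tested genes. At an unadjusted p under 0.05 the counts were 0 of 14 smooth-muscle companions, 3 of 16 paralogs, 1 of 20 SRF cofactors and anchors and 0 of 3 striated markers. The medians were -0.09, -0.10, -0.10 and -0.06 in the same order. Among all tested genes, 1177 of 13384 had an unadjusted p under 0.05, and the median was 0.02. ACTC1, picked out after its values were seen, was at 32.5, 29.3 and 30.1 CPM with TGF-β and 18.7, 23.0 and 18.2 CPM with TGF-β + uridine. Its log2 difference was -0.62 (SE 0.19, 95% interval -1.04 to -0.19, edgeR adjusted p = 0.370).

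Over the 9 libraries, the non-member genes whose log2 CPM was most like that of ACTA2 among 9984 genes compared were SCARA3, IER3, POMT2, ACTN1 and P4HA2, with Pearson coefficients from 0.982 to 0.990. Those most like MYLK3 were AFAP1, MPZL2, OPN3, BTN3A1 and DLG5, with coefficients from 0.969 to 0.990. These coefficients describe an ordering that the 3 groups largely set, and no p is given for them. ACTN1, encoding the stress fibre crosslinker α-actinin 1, differed by 0.47 on the log2 scale with TGF-β and by -0.15 between TGF-β + uridine and TGF-β. AFAP1, encoding an actin filament-associated protein, differed by -0.59 with TGF-β and by 0.05 between TGF-β + uridine and TGF-β.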

How the data were processed

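RNA from 9 LX-2 libraries was analysed from the table of counts per gene and the FPKM values that the authors deposited. Per the submitters' processing notes, fastp, HISAT2, HTSeq and R 3.2.0 were used with GRCh38.p13, and the FPKM values of the authors are scaled by reads and gene length. Annotation release and strand setting are not given in the sources used here. Groups came from the labels, the control group from titles alone. The members and gene lists were chosen with earlier results of these data known. A further gene list is not reported here.

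Counts were fitted in edgeR 4.0.16 (R 4.3.3) by the quasi-likelihood test in one model over all 9 libraries, after filterByExpr (13384 of 20777 genes kept) and TMM scaling. P-values were adjusted by Benjamini-Hochberg over all tested genes, with calls under 0.05, and the standard error is the log2 fold change divided by the root of F. Exact permutation tests (scipy 1.17.1) were two-sided. Depth was 40539751 to 41467124 reads, and a count of 0 allows up to 3 reads; floors cover counting error only. The GC slope was fitted over 12818 tested genes (95.8%). GC content was that of the longest transcript of each gene, coding ones first, from GENCODE v29 on GRCh38, the source of gene positions. No libraries were near-identical. DESeq2 1.42.0, RLE factors, other filters, 2-group fits, a replicate block, the GC slope and omission of each library were tried.

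All members were named. From each list, genes with adjusted p under 0.05 were named, at most 3 per direction, along with the 5 non-members most like ACTA2 and MYLK3, their neighbours and the top marker of a cell type.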

Additional observations from a re-analysis of the deposited data

How the results depend on the processing

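Settings changed the calls more than the differences. For TGF-β + uridine against TGF-β, where 6 genes and 0 members passed, gene counts were 238 (DESeq2), 317 (only both groups compared), 2540 (GC slope covariate, 3 members), 2055 (replicate block with GC slope covariate, 2 members, ACTA2 and MYL9) and 0 to 271 with a library left out, the 271 without control replicate 1. In a fit chosen after seeing the data, with the GC slope and without control replicate 1, 3101 genes and 4 members (ACTA2, ACTG2, TPM2 and MYL9) passed. Over all alternatives the adjusted p of ACTA2 ran from 0.00139 to 1.

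For TGF-β against control, where 453 genes and 5 members passed, counts were 861 (DESeq2), 229 (both groups alone), 2709 and 8 members (GC slope), 2342 and 8 members (block with GC slope), 2082 and 8 members (the added fit), and 218 to 1085 genes and 3 to 7 members with a library left out. The calls of ACTA2 and CNN1 were lost without control replicate 2, TGF-β replicate 1 or TGF-β replicate 2, that of ACTA2 also in the fit of both groups alone, and 7 members passed without control replicate 1. MYH9, PDLIM7, FBLIM1 and MYL7 lost their calls in 12, 6, 5 and 11 of 18 alternatives. For TGF-β + uridine against control (714 genes, 5 members), counts were 1293 (DESeq2), 222 and 1 member, TAGLN (both groups alone), 437 (replicate block), 4163 (GC slope), 3754 (block with GC slope), 4319 (the added fit), and 304 to 2413 genes and 3 to 7 members with a library left out. Among members, ACTA2 and CNN1 lost their calls there without any library but control replicate 1. The cause of these shifts was not tested.

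Signs reversed for TAGLN, CALD1, TPM2 and MYLK. For TGF-β + uridine against TGF-β, CALD1 was -0.035 (replicate block), -0.083 (GC slope), -0.082 (GC slope with the block), -0.12 (the added fit) and -0.31 to 0.29 with a library left out, TAGLN was -0.16 to 0.023 and MYLK -0.36 to 0.14. For TGF-β against control, CALD1 was 0.0904 (replicate block), 0.0902 (GC slope), 0.084 (both), 0.22 (the added fit) and -0.35 to 0.44 with a library left out, and TPM2 was -0.076 to 0.35. For TGF-β + uridine against control, TPM2 was 0.036 (GC slope), 0.039 (GC slope with the block), 0.056 (the added fit) and -0.22 to 0.20, CALD1 was -0.33 to 0.48, and MYLK was -0.15 (the added fit) and -0.094 to 0.42.

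Libraries with the same number deviated together in some pairs and not in others: the correlations of their deviations were -0.124, -0.0924 and -0.0312 for TGF-β + uridine against TGF-β, 0.218, 0.0955 and 0.0846 for TGF-β against control, and -0.177, -0.21 and 0.558 for TGF-β + uridine against control. In no comparison did every pair exceed 0.1, so the numbers were not taken as pairs. With the replicate block alone, 0, 314 and 437 genes and 0, 4 and 4 members passed in the order above. CNN1 was the member lost in both.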
